A study of Caenorhabditis elegans with 8 samples.

Results

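The comparison described here asked what the lack of cholesterol did to transcript levels in adult Caenorhabditis elegans that were also without food. It set the 2 arrays of fasted worms kept without cholesterol against the 2 arrays of fasted worms kept with it, 4 of the 8 arrays in the study, chosen by their titles and not by any measured value. All worms were of the laboratory strain N2, grew to young adulthood before transfer onto FUDR, a drug that stops progeny from developing, and were collected on day 4 of adulthood. Deprivation began at hatching. The labels disagree about the fast, which the source names give as 24 h and the treatment text as 48 h from day 2 of adulthood, so no length is assumed here. The 4 fed arrays, 2 of each cholesterol state, entered the fit to estimate the spread and are quoted beside the fasted values. The labels name no dissected tissue, so the values are read as averages over all tissues, and every group had its progeny blocked by FUDR.

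The nematode cannot build the sterol ring and takes its sterols from food or medium. Small amounts become dafachronic acids, steroid hormones made through the oxygenase DAF-36 and the cytochrome P450 DAF-9 that bind the nuclear receptor DAF-12, and NCR-1 and NCR-2, relatives of the human protein lost in Niemann-Pick type C disease, move sterols within cells. The intestine is the worm's digestive and fat-storing organ, and its lysosomes break down fat and protein when food is withdrawn. The FOXO transcription factor DAF-16, held out of the nucleus by insulin-like signalling, is active in the fasted worm. The title names cholesterol, DAF-16 and the long life of fasted worms as its subject.

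RNA was hybridised to 1-colour Affymetrix arrays, and each value is a normalised signal on a linear scale. The array medians ran from 66.7 to 70.9, and the replicates of each group correlated at 0.992 or more across probe sets. Changes are differences of log2(signal + 1), deprived minus undeprived, with their standard error (n = 2 arrays per group). A gene is said to have risen or fallen where its adjusted p was under 0.05 in a limma fit over all 22548 probe sets. The fasted arrays are called undeprived 1 and 2 and deprived 1 and 2. Among these 4 arrays the first principal component held 54.2% of the variance and separated the cholesterol states, and the second held 34.8% and separated the replicate numbers.

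Deprivation changed 199 of 17118 genes in fasted worms, 1.16% of those measured. The rises outnumbered the falls, with 120 genes up (0.701%) and 79 down (0.462%), although the median change of all genes was -0.0469 and only 40.4% of genes lay above 0. At least a 2-fold change was seen in 75 of the rises and 59 of the falls. With 2 arrays a group the absence of overlap says little, since 45.6% of all genes had fasted arrays that did not overlap between the cholesterol states, 17.5% with the deprived arrays above and 28.1% with them below. The rises were led by uncharacterised genes, a cytochrome P450, transthyretin-related genes and an insulin-like peptide, and the falls by lysosomal lipases, proteases, sphingolipid hydrolases and lysozymes. Over probe sets, 249 were called (1.1%), 155 of them higher (0.687%) and 94 lower (0.417%), and 166 by at least 2-fold (0.736%). That count depended on single arrays: 61 probe sets were called without undeprived 1, 91 without deprived 1, 110 without undeprived 2 and 157 without deprived 2. It was 150 without either fed undeprived array and 156 without either fed deprived array. Each of these refits left 1 array in its group and 3 residual degrees of freedom, against 4 in the main fit. A lost call can therefore come from lost precision as well as from the array left out, and the 2 were not told apart. When the replicate number was entered as a block, all 199 genes kept their call. The number of called genes then rose to 627 (3.66%), of which 369 were higher (2.16%) and 258 lower (1.51%).

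**Figure D1:**
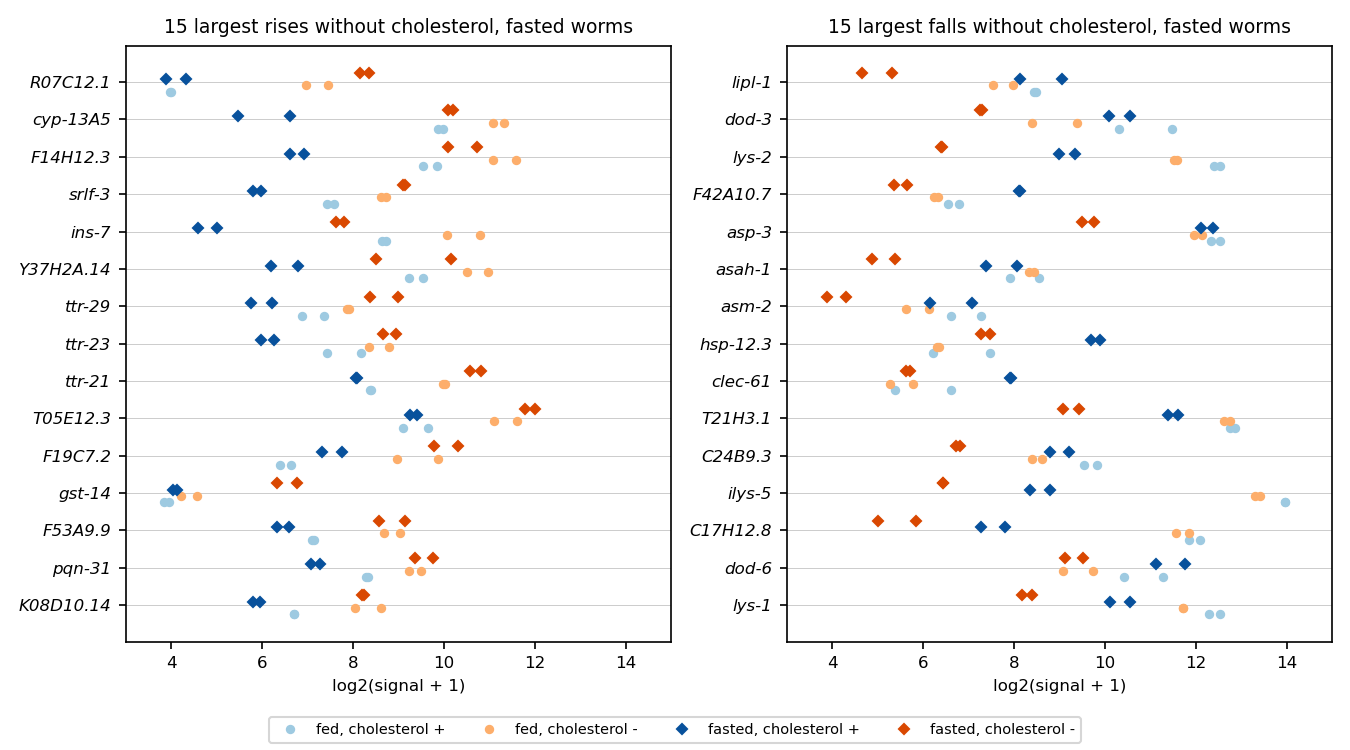
Signal of the 15 genes with the largest rise (left) and the 15 with the largest fall (right) in fasted worms without cholesterol, on a log2 axis of signal plus 1, with 1 point per array and 2 arrays per group. The rows were chosen for fasted arrays that do not overlap between deprived (dark orange diamonds) and undeprived worms (dark blue diamonds), and the fed arrays (pale circles) show how the same genes stood with food.

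The plot of the largest changes by array begins with lipl-1 among the falls. The LIPL enzymes are acid lipases of the intestinal lysosome, and several are known as genes that fasting induces. Signals of lipl-1 were 531.5 and 280.7 in the undeprived arrays and 24.2 and 38.9 in the deprived arrays, a change of -3.61 ± 0.33 (adjusted p = 0.0043). Both deprived arrays lay far below the lower undeprived one. In fed worms the same gene stood at 346.4 and 359.5 with cholesterol and 185.0 and 251.1 without it, a difference of -0.71 ± 0.33 that did not pass the test (adjusted p = 0.401). The family moved in the same direction: 3 of its 8 measured members fell, none rose, and all 8 changes were below 0, with a median of -1.08 against -0.0469 for all genes. The share called was 37.5%, against 1.16% of all genes, in a family chosen after its values were seen. A second member, lipl-5, gave 968.6 and 1017.2 against 296.3 and 425.0 (-1.48 ± 0.17, adjusted p = 0.0117), and lipl-2 gave 114.3 and 118.1 against 35.6 and 35.8 (-1.67 ± 0.29, adjusted p = 0.0499). Neither gene's groups overlapped. The values of lipl-4 were 208.9 and 193.8 against 74.7 and 72.3, a difference of -1.44 ± 0.32 with an adjusted p of 0.109 that became 0.0187 with the replicate block. Without undeprived 1 the adjusted p of lipl-2 was 0.251 and that of lipl-5 was 0.087, and the list kept 1 call both there and without undeprived 2, while lipl-1 kept its call without each of the 8 arrays in turn.

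Aspartyl proteases, the cathepsin D-like enzymes of gut and lysosome, were lower as well. The signal of asp-3 was 5346.7 and 4419.6 in the undeprived arrays and 721.9 and 868.0 in the deprived arrays, a change of -2.62 ± 0.15 (adjusted p = 0.000787) that held without each array in turn. In the fed arrays it read 5942.6 and 5195.0 with cholesterol and 4007.0 and 4535.6 without. Thus the 2 deprived fasted arrays stood far below all 6 others. The difference between the deprivation effects in fasted and fed worms was -2.24 ± 0.21 (adjusted p = 0.0282). Falls were also seen for asp-13, from 1318.2 and 1471.4 to 384.6 and 540.9 (-1.61 ± 0.19, adjusted p = 0.0122) and asp-1, from 2221.0 and 2700.5 to 844.4 and 1200.5 (-1.28 ± 0.18, adjusted p = 0.0241). Of the 15 measured members 3 fell, none rose and the median was -0.62. The share called was 20%, against 1.16% of all genes. With the replicate block 8 members fell, 53.3% against 3.66% of all genes. Among them asp-5 was at -1.25 (adjusted p = 0.00248 against 0.0805 without the block). A second asp-5 probe set passed without the block, at -1.40 (adjusted p = 0.0389). Summed over the family the signal was 14288 and 13433 in the deprived arrays and 28254 and 28096 in the undeprived arrays. The call of asp-13 was lost without undeprived 1 (adjusted p = 0.0829), undeprived 2 (0.0746) or deprived 1 (0.0501), and that of asp-1 in 7 of the 8 refits, with an adjusted p of up to 0.104 without undeprived 2.

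Other lysosomal genes gave a mixed picture. In the wider list of lysosomal proteases and proton pump subunits, 5 of 55 genes fell, none rose and the median was -0.15. The share called was 9.09%, against 1.16% of all genes. The further 2 falls were those of cpr-2, a cathepsin B-like protease (-0.68 ± 0.11, adjusted p = 0.0378), and ctsa-1.2, a serine carboxypeptidase (-1.0 ± 0.16, adjusted p = 0.0398, with -0.66 and 0.165 in a second probe set). These calls were lost in 8 and 7 of the single-array refits, with adjusted p of up to 0.208 for cpr-2 without undeprived 1 and 0.149 for ctsa-1.2 without deprived 1. The vha subunits of the proton pump, which acidifies the lysosome, contributed none: 0 of 19 were called and their median was 0.005. Under the block the wider list held 11 falls and 2 rises, 23.6% against 3.66% of all genes. Autophagy genes were not called either, 0 of 30, with a median of 0.05 (1 rise, hlh-30, with the block, 3.33%). The bHLH factor hlh-30, the worm's TFEB and a regulator of lysosome and autophagy genes, had signals of 196.9 and 269.9 undeprived against 551.4 and 446.6 deprived. Its difference of 1.1 ± 0.20 had an adjusted p of 0.0583, and 0.0198 with the replicate block. The other hlh-30 probe sets were not called and had opposite signs, 0.64 (adjusted p = 0.0983) and -0.36 (adjusted p = 0.285).

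Sphingolipid breakdown was touched at 2 steps. Acid ceramidase asah-1, which splits ceramide in the lysosome, gave 268.2 and 165.8 in the undeprived arrays and 28.2 and 40.6 in the deprived arrays (-2.60 ± 0.30, adjusted p = 0.0103). The acid sphingomyelinase asm-2, which releases ceramide from sphingomyelin, gave 135.2 and 70.2 against 13.8 and 18.8 (-2.52 ± 0.36, adjusted p = 0.0248). Deprived and undeprived arrays did not overlap for either gene, as the rule that named them required. The undeprived arrays of each gene differed by more than 1.5-fold, and the deprived asm-2 signals lay below the lower quartile of all values. At the head of the synthetic pathway sptl-2, a subunit of serine palmitoyltransferase, rose from 72.5 and 76.9 to 150.1 and 134.2 (0.92 ± 0.13, adjusted p = 0.0253). The other 21 of 24 sphingolipid enzymes were not called, and the list's median was 0.05. The share called was 12.5%, against 1.16% of all genes. The highest adjusted p with 1 array left out was 0.0709 for asah-1 without undeprived 1, 0.135 for asm-2 without deprived 1 and 0.179 for sptl-2 without undeprived 1.

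**Figure D2:**
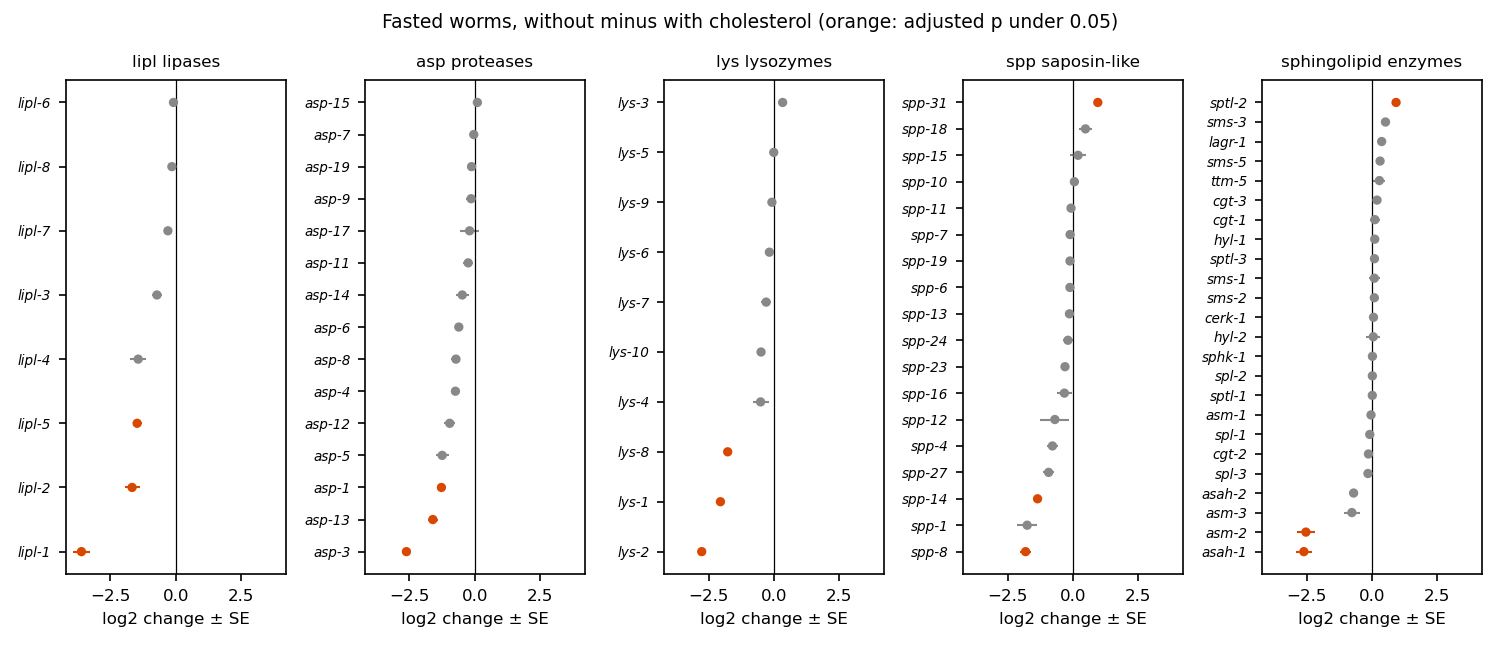
Log2 change (deprived minus undeprived, fasted worms) with its standard error for each measured member of 5 families, with members past the threshold in orange and the rest in grey. The lipl, asp and lys panels lean to the left of 0. Of the 18 spp genes 14 lie below 0, with a median of -0.165. Of the 24 sphingolipid enzymes 16 lie above 0, with single members far below it.

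Lysozymes, which cut bacterial cell walls and are made mainly in the intestine, held 4 falls among 16 measured genes. The gene lys-2 gave 651.6 and 506.8 in the undeprived arrays and 83.8 and 84.2 in the deprived arrays (-2.76 ± 0.14, adjusted p = 0.000485). Its neighbour lys-1 went from 1501.7 and 1116.6 to 336.8 and 290.9 (-2.04 ± 0.16, adjusted p = 0.0026), and lys-8 from 2187.3 and 1640.1 to 546.5 and 564.2 (-1.77 ± 0.16, adjusted p = 0.00388). All 3 kept their call without each of the 8 arrays. They were the falls among 10 measured protist-type lysozymes, 30% against 1.16% of all genes, none of the 10 rose, and the family median was -0.40. With the block 4 of the 10 fell, 40% against 3.66% of all genes. In the fed arrays lys-2 read 5968.0 and 5393.5 with cholesterol and 3080.8 and 2939.7 without it, so the 2 deprived fasted arrays were the lowest of the 8. The deprivation effect on lys-2 differed between fasted and fed worms by -1.85 ± 0.20 (adjusted p = 0.0392). Of the 6 invertebrate-type lysozymes, whose median was 0.17, only ilys-5 was called, and it fell from 329.0 and 444.5 to 86.2 and 85.3 (-2.14 ± 0.15, adjusted p = 0.00168), and its other probe sets gave -2.35 and -2.69. In contrast ilys-2 and ilys-3 had positive differences of 1.03 and 0.92 that did not pass the test (adjusted p = 0.235 and 0.247). The probe sets of lys-2, ilys-5, dod-3 and spp-8 are of the kind that can also bind transcripts of similar genes.

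Across the whole list of lysozymes, saposin-like proteins and antimicrobial peptides, 7 of 82 genes fell and 6 rose, and the median was -0.11. These calls were 15.9% of the list, against 1.16% of all genes. Saposin-like spp proteins, membrane-active proteins related to amoebapores, held 2 of the falls, with spp-8 going from 710.2 and 486.5 to 144.7 and 192.4 (-1.81 ± 0.20, adjusted p = 0.0103) and spp-14 from 2681.2 and 2613.3 to 1252.1 and 856.0 (-1.35 ± 0.17, adjusted p = 0.0154). Another gene of the family, spp-31, rose from 287.7 and 291.9 to 540.3 and 580.4 (0.95 ± 0.13, adjusted p = 0.0204). The rises included the antibacterial factor abf-5 (1.89 ± 0.22, adjusted p = 0.012), the peptide gene nlp-25 (1.67 ± 0.13, adjusted p = 0.00249), the caenacin cnc-4 (0.86 ± 0.12, adjusted p = 0.0241) and the infection response gene irg-1 (1.62 ± 0.16, adjusted p = 0.00662). A second infection response gene, irg-3, was the seventh fall (-1.13 ± 0.19, adjusted p = 0.0418). The 17 caenacins and nlp-29 group peptides had a median of 0.39, with 2 rises and no fall (11.8%), and 5 rises under the block (29.4%). Of 18 spp genes 16.7% were called without the block, and with it 4 fell and 1 rose (27.8%). Under the block the whole list held 14 falls and 11 rises (30.5%). These blocked shares stand against 3.66% of all genes. With the block spp-1, an uncalled gene at -1.75, went from an adjusted p of 0.102 to 0.00021. Leaving out undeprived 1 reduced the rises to 1 and the falls to 4, and leaving out deprived 1 reduced the rises to 1. With 1 array left out, nlp-25 kept its call throughout, and the highest adjusted p was 0.0611 for spp-8 and 0.205 for irg-3 without deprived 1, 0.125 for spp-14, 0.143 for spp-31, 0.0971 for abf-5 and 0.0688 for irg-1 without undeprived 1, and 0.0994 for cnc-4 without undeprived 2.

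C-type lectins, secreted carbohydrate-binding proteins that the worm uses in immunity among other roles, held 6 falls and 2 rises in 220 measured genes, 3.64% against 1.16% of all genes. The other 212 did not pass the test. The median was -0.13, against -0.0469 for all genes. The largest fall was that of clec-61, from 246.0 and 240.0 to 48.6 and 51.5 (-2.26 ± 0.36, adjusted p = 0.0374). For clec-65 the signals were 1277.8 and 971.2 against 305.2 and 399.5 (-1.67 ± 0.22, adjusted p = 0.0164), and for clec-1 they were 1695.2 and 2204.3 against 545.1 and 731.9 (-1.61 ± 0.18, adjusted p = 0.00994). The deprived arrays were lower in each of these cases without overlap, which the rule that named clec-61 required. The rises were clec-10, at 1.60 ± 0.19 (adjusted p = 0.0118), and clec-264, at 1.53 ± 0.22 (adjusted p = 0.0261). No lectin named here kept its call in every single-array refit. The closest was clec-1, lost only without undeprived 2 (adjusted p = 0.0558), and the highest adjusted p was 0.231 for clec-61 without undeprived 1, where 1 fall was left in the list. Under the block 10 lectins fell and 4 rose, 6.36% against 3.66% of all genes.

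Transthyretin-related genes encode small secreted proteins, a family much larger in nematodes than in vertebrates, and the functions of most members are unknown. Of 40 measured members 6 rose and 2 fell, 20% of the family against 1.16% of all genes, while the family median was 0.03. The strongest calls were those of ttr-21, from 268.1 and 269.9 to 1810.6 and 1531.4 (2.63 ± 0.11, adjusted p = 0.00026), and ttr-29, from 74 and 52.7 to 504.3 and 329.7 (2.69 ± 0.26, adjusted p = 0.00534). Both held without each array in turn. Then came ttr-23, from 61.5 and 76.2 to 492.0 and 400.4 (2.68 ± 0.27, adjusted p = 0.00662), and ttr-27, from 39.4 and 33.2 to 204.8 and 129.3 (2.14 ± 0.23, adjusted p = 0.0089). None of the deprived arrays overlapped the undeprived ones in these 4 genes, but for ttr-21, ttr-29 and ttr-23 the rule that named them required this. Smaller rises were those of ttr-26 (1.37 ± 0.21, adjusted p = 0.0335) and ttr-22 (0.93 ± 0.15, adjusted p = 0.0389). In the other direction ttr-44 fell from 1220.6 and 881.4 to 340.7 and 271.9 (-1.77 ± 0.20, adjusted p = 0.0106), and ttr-48 fell from 2158.3 and 1816.0 to 1095.4 and 900.4 (-0.99 ± 0.17, adjusted p = 0.0481). The remaining 32 members lay between -1.12 (ttr-46) and 0.65 (ttr-28). In fed worms ttr-21 also rose, by 1.60 ± 0.11 (adjusted p = 0.00241), and the difference between feeding states did not pass the test (adjusted p = 0.13). Without undeprived 1 the family held 2 rises and no fall, the adjusted p reaching 0.268 for ttr-48, 0.232 for ttr-22, 0.0709 for ttr-44, 0.0705 for ttr-23 and 0.0644 for ttr-27, and without deprived 1 that of ttr-26 was 0.169. With the block 7 members rose and 4 fell, 27.5% against 3.66% of all genes.

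**Figure D3:**
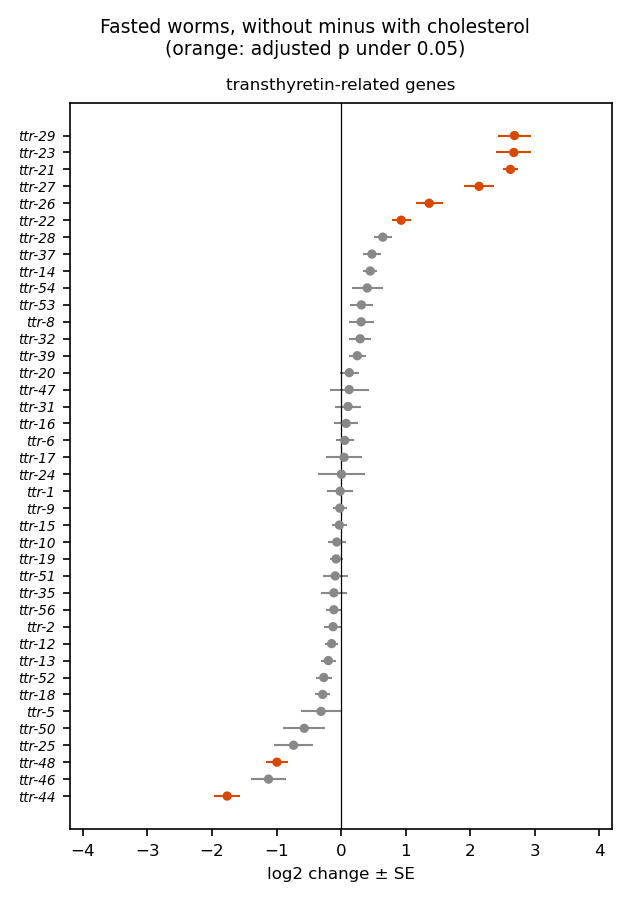
Log2 change (deprived minus undeprived, fasted worms) with its standard error for the 40 measured transthyretin-related genes, in order of the change and with members past the threshold in orange. The 6 rises stand apart at the upper right, from 0.93 to 2.69, and the 2 falls are at the lower left.

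The list of genes that DAF-16 is known to activate was lower in the deprived fasted worms. Its median was -0.61, against -0.0469 for all genes, 18 of 21 members were below 0, 3 fell and none rose. Of the list 14.3% was called, against 1.16% of all genes, and 40.4% of all genes lay above 0. The gene dod-3 fell from 1510.7 and 1094.3 to 157.1 and 152.6 (-3.05 ± 0.42, adjusted p = 0.0235). The small heat shock gene hsp-12.3 fell from 830.6 and 950.5 to 176.6 and 155.2 (-2.42 ± 0.35, adjusted p = 0.0254). A glycerol and water channel gene, aqp-1, fell from 2506.5 and 2268.0 to 919.9 and 1265.5 (-1.14 ± 0.20, adjusted p = 0.048). In each case both deprived arrays were below both undeprived ones, which the rule that named dod-3 and hsp-12.3 required. Familiar targets did not pass the test without the block: sod-3, the mitochondrial superoxide dismutase, differed by -1.09 ± 0.22 (adjusted p = 0.0797), pck-1, which starts gluconeogenesis, by -1.12 ± 0.22 (adjusted p = 0.0717), hsp-12.6 by -1.14 ± 0.25 (adjusted p = 0.109) and the metallothionein mtl-1 by -1.29 ± 0.56 (adjusted p = 0.364). With the replicate block their adjusted p became 0.00677, 0.00605, 0.0477 and 0.0152. Under it 10 of the 21 members fell, 47.6% against 3.66% of all genes. The glyoxylate cycle gene icl-1 was at -0.30 ± 0.16 (adjusted p = 0.442), and daf-16 itself at 0.07 ± 0.24 (adjusted p = 0.926), with 0.51, 0.24 and -0.07 in its other probe sets, none of which was called. None of the 3 calls survived without undeprived 1, where the adjusted p was 0.179 for dod-3, 0.158 for hsp-12.3 and 0.268 for aqp-1, nor without deprived 1 or undeprived 2.

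Genes known to be repressed by DAF-16 went in both directions. The insulin-like peptide ins-7, an activator of the insulin receptor DAF-2 made in part by the intestine, rose from 23 and 31.4 to 197.9 and 221.1 (2.92 ± 0.24, adjusted p = 0.00289) and kept its call without each array. Its signal in fed worms was 424.4 and 398.7 with cholesterol and 1786.3 and 1076.2 without it, a rise of 1.75 ± 0.24 (adjusted p = 0.0231). The 4 groups therefore lay apart, with the undeprived fasted arrays lowest. None of the other 23 insulin-like peptide genes measured was called, and with the block 1 further member rose. The share of that family called was 4.17%, and 8.33% with the block, against 1.16% and 3.66% of all genes. The second rise of the repressed list was dod-23, from 1261.7 and 847.4 to 3147.4 and 2682.6 (1.49 ± 0.21, adjusted p = 0.0248). Against these, dod-24 was at -1.39 ± 0.27 (adjusted p = 0.0733, and 0.00181 with the block) and the nuclease gene nuc-1 at -1.52 ± 0.31 (adjusted p = 0.0825, and 0.0203 with the block). Of 15 measured members 2 rose, none fell and the median was -0.16, and under the block 3 rose and 3 fell. The share called was 13.3%, and 40% with the block, against 1.16% and 3.66% of all genes. The call of dod-23 was lost in 5 of the 8 refits, with an adjusted p of up to 0.136 without deprived 1.

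Few genes of sterol handling were called without the block. None of the 22 genes of sterol uptake and transport was called, and their median was -0.04. With the block 1 rose and 2 fell, 13.6% against 3.66% of all genes. The lowest change of this list, -0.925, was the same as that of the vitellogenins, and lists overlap. Signals of ncr-1 were 216.8 and 190.0 in the undeprived arrays and 279.0 and 254.0 in the deprived arrays (0.39 ± 0.13, adjusted p = 0.261), and those of ncr-2 were 38.3 and 46.4 against 44.8 and 46.8 (0.12 ± 0.12, adjusted p = 0.709). For chup-1, a cholesterol uptake protein, the difference was -0.03 ± 0.12 (adjusted p = 0.935). Among 17 genes of the dafachronic acid pathway only strm-1 was called without the block, and it encodes a sterol methyltransferase that withdraws hormone precursors. With the block 1 gene of that list rose and 1 fell, 11.8% against 3.66% of all genes. Without the block the share was 5.88%, against 1.16% of all genes, and strm-1 was the only call. It read 31.7 and 28.7 in the undeprived arrays and 64 and 56.9 in the deprived arrays (0.98 ± 0.14, adjusted p = 0.0253), with an adjusted p of up to 0.137 when deprived 1 was left out. The hormone-making genes daf-36 (0.07 ± 0.23, adjusted p = 0.913), daf-9 (-0.21 ± 0.14, adjusted p = 0.545) and dhs-16 (0.58 ± 0.14, adjusted p = 0.131) did not pass the test. Nor did the receptor gene daf-12, at 249.1 and 240.2 against 235.4 and 240.3 (-0.04 ± 0.10, adjusted p = 0.887), or nhr-8, a nuclear receptor of sterol metabolism (0.38 ± 0.17, adjusted p = 0.366). None of 12 mevalonate pathway genes was called.

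The vitellogenins, yolk proteins that carry lipid and sterol from intestine to oocytes, were not called by their brightest probe sets, 0 of 5. Their median change was -0.472, and the lowest, in a member not named here, was -0.925. A dimmer vit-4 probe set did pass the test, at 2469.3 and 1731.6 undeprived and 699.1 and 679.8 deprived (-1.58 ± 0.24, adjusted p = 0.0303). The vit-5 signal in undeprived 1, 19675.6, was the highest of that array, so the differences of the brightest vitellogenin probe sets come from the top of the scale. For vit-5 the signals were 19675.6 and 18999.7 undeprived and 13568.2 and 13228.2 deprived (-0.53 ± 0.09, adjusted p = 0.053), and for vit-4 17548.8 and 18105.6 against 12979.6 and 12725.3 (-0.47 ± 0.09, adjusted p = 0.0764). The arrays did not overlap, and with the replicate block both fell (adjusted p = 0.0266 and 0.0409), 40% of the list against 3.66% of all genes. The values of vit-2, at 5964.3 and 5756.3 against 7088.1 and 6170.3, and of vit-6 differed by 0.17 ± 0.15 and 0.02 ± 0.10. The yolk receptor gene rme-2 was at 0.11 ± 0.10 (adjusted p = 0.668).

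Few genes of fat metabolism were called. The desaturase fat-3, which opens the route to long polyunsaturated fatty acids, fell from 6872.8 and 5663.4 to 2332.6 and 2486.9 (-1.37 ± 0.20, adjusted p = 0.0289). It was the only call among 26 genes of fatty acid synthesis, desaturation and elongation, whose median was -0.20. That was 3.85%, against 1.16% of all genes. The delta-9 desaturases that make monounsaturated fat had values of the same sign: fat-5 was at 982.9 and 1018.7 against 390.8 and 490.3 (-1.19 ± 0.21, adjusted p = 0.0504), fat-7 at 100.8 and 209.3 against 53.1 and 63.5 (-1.31 ± 0.30, adjusted p = 0.119) and fat-6 at -0.59 ± 0.24 (adjusted p = 0.335). Under the block fat-5 and fat-7 fell as well (adjusted p = 0.0153 and 0.0251), and 5 of the 26 genes fell in all, 19.2% of the list. In the list of fatty acid oxidation only acox-1.5, a peroxisomal acyl-CoA oxidase, fell (-1.45 ± 0.19, adjusted p = 0.0194), 1 of 64, and with the block 2 genes of that list rose and 1 fell. These shares, 1.56% and 4.69% with the block, were close to the 1.16% and 3.66% of all genes. The calls of fat-3 and acox-1.5 were lost without undeprived 1 (adjusted p = 0.211 and 0.125), undeprived 2 (0.0822 and 0.0949) and deprived 1 (0.146 and 0.0753), and that of fat-3 also without deprived 2 (0.0914).

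Enzymes of oxidation and conjugation contributed a large rise. The cytochrome P450 cyp-13A5 went from 43.5 and 96.8 in the undeprived arrays to 1175.6 and 1093.5 in the deprived arrays (4.10 ± 0.32, adjusted p = 0.00239), and its call held without each array. With food the gene read 1013.0 and 931.7 with cholesterol and 2545.6 and 2162.9 without it, a difference of 1.27 ± 0.32 (adjusted p = 0.134). The undeprived fasted arrays were therefore the 2 that stood low. It was the only member called of the 9 cyp-13A genes measured, and of 74 P450 genes in all 4 rose and 1 fell. That was 6.76% of the P450 genes, against 1.16% of all genes. The other rises, cyp-34A7 (1.04 ± 0.16, adjusted p = 0.0324), cyp-33C7 (0.98 ± 0.15, adjusted p = 0.0337) and cyp-33C4 (0.91 ± 0.15, adjusted p = 0.0427), and the fall of cyp-13B1 (-0.97 ± 0.17, adjusted p = 0.0481, with -0.57 and 0.34 in a second probe set) were lost without undeprived 1, with adjusted p of 0.147, 0.143, 0.16 and 0.261. Under the block 7 P450 genes rose and 5 fell. The glutathione S-transferase gst-14 rose from 16 and 15.4 to 79 and 108.3 (2.47 ± 0.18, adjusted p = 0.00189), the only call among 45 without the block, and it held without each array. The share called in that family was 2.22%, and 8.89% with the block (2 rises and 2 falls), against 1.16% and 3.66% of all genes. The undeprived gst-14 signals lay below the lower quartile of all values, so its change is no exact fold.

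UDP-glucuronosyltransferases, which attach sugars to small lipophilic molecules, held 2 rises and 2 falls in 64 genes. The share called was 6.25%, against 1.16% of all genes. The neighbours ugt-44, from 709.1 and 465.0 to 186.6 and 140.0 (-1.82 ± 0.23, adjusted p = 0.0146), and ugt-43, from 169.4 and 134.5 to 46.0 and 47.5 (-1.67 ± 0.18, adjusted p = 0.00823), fell together. The rises were those of ugt-36 (1.1 ± 0.17, adjusted p = 0.0317) and ugt-4 (0.81 ± 0.13, adjusted p = 0.0371). Both falls and both rises were lost without undeprived 1, with adjusted p of 0.0741 for ugt-44, 0.0688 for ugt-43, 0.219 for ugt-36 and 0.173 for ugt-4. With the block 8 genes of the family rose and 5 fell, 20.3% against 3.66% of all genes. The glutathione peroxidases gpx-3 (-1.15 ± 0.18, adjusted p = 0.0327) and gpx-7 (-0.96 ± 0.12, adjusted p = 0.0147), which reduce peroxides, fell, with adjusted p of 0.123 and 0.121 without undeprived 1.

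**Figure D4:**
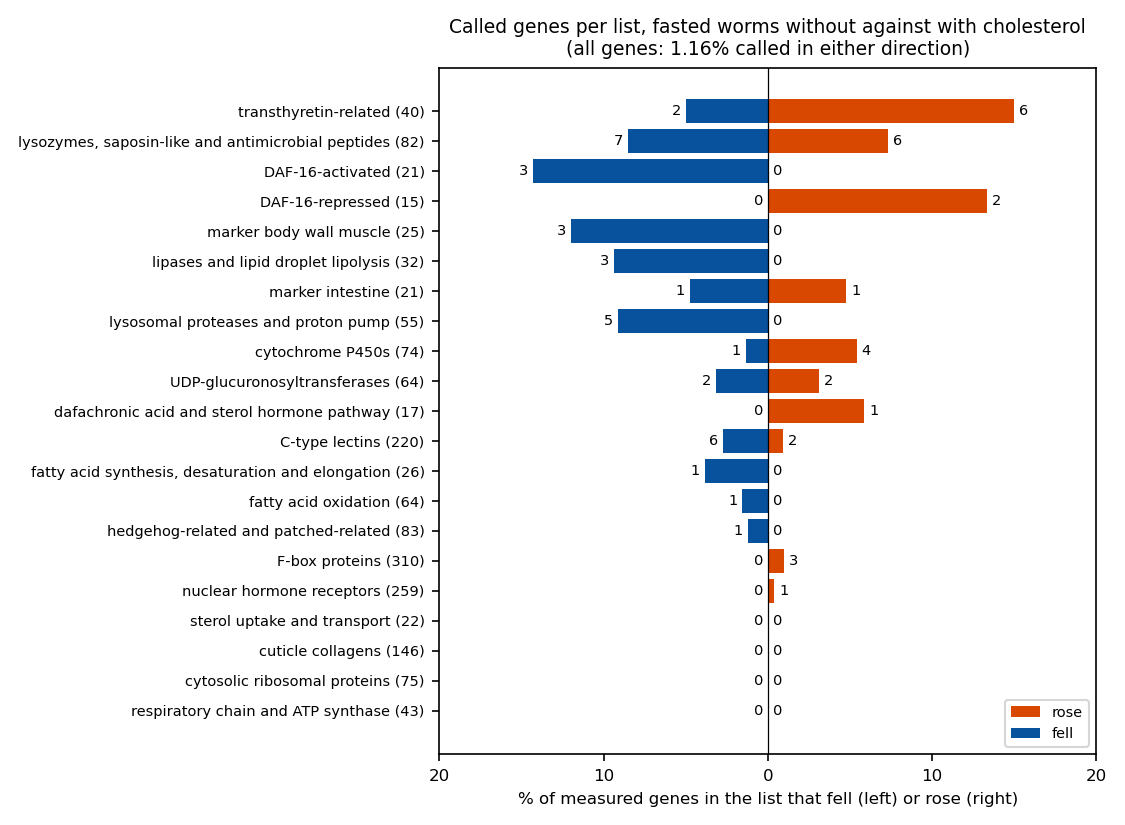
Share of the measured genes of 21 lists that fell (left, blue) or rose (right, orange) in fasted worms without cholesterol, with the number of measured genes in parentheses and the number called beside each bar. The DAF-16-activated, muscle, lipase and lysosomal protease lists hold falls and no rise, rises outnumber falls among the transthyretin-related genes, the DAF-16-repressed genes and the P450s, and the last 4 lists have no call.

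The uncharacterised gene R07C12.1 rose from 13.9 and 19 to 327.5 and 281.8 (4.14 ± 0.20, adjusted p = 0.000485). Its undeprived signals lay below the lower quartile of all values, so this number is no exact fold. In fed worms it rose by 3.22 ± 0.20 (adjusted p = 0.00174), from 14.8 and 14.9 to 174.6 and 123.4. All 4 deprived arrays, fed or fasted, thus lay above all 4 undeprived ones. The gene next to it on chromosome IV, K08D10.14, rose from 54.6 and 60.8 to 294.3 and 301.4 (2.35 ± 0.18, adjusted p = 0.00239). Further large rises without a known role were F14H12.3, from 121.1 and 96.9 to 1698.8 and 1093.9 (3.64 ± 0.26, adjusted p = 0.00189, with 2.99 in a second probe set), and srlf-3, from 54.3 and 62.2 to 561.2 and 545.3 (3.23 ± 0.12, adjusted p = 0.000206). Of the same family srlf-30 rose by 2.1 ± 0.23 (adjusted p = 0.00881) and srlf-35 by 1.54 ± 0.13 (adjusted p = 0.00275), so that 3 of its 24 members rose and none fell, with a median of 0.01. The share called was 12.5%, against 1.16% of all genes, and 4 members rose with the block (16.7%, against 3.66% of all genes). Of 58 abu and pqn genes, listed together as glutamine-rich, 3 rose, 5.17% against 1.16% of all genes. They were pqn-31 at 2.38 ± 0.16 (adjusted p = 0.00161), pqn-94 at 2.11 ± 0.17 (adjusted p = 0.00249) and pqn-25 at 0.85 ± 0.11 (adjusted p = 0.0161). With the block 3 of the 58 rose and 1 fell (6.9%). Apart from srlf-30 (adjusted p = 0.0836) and pqn-25 (0.0987), which lost their calls without undeprived 1, the genes of this group kept theirs without each array.

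The remaining large changes were in genes of unknown or less certain role. Among the rises, T05E12.3 went from 680.1 and 606.0 to 4126.4 and 3512.7 (2.57 ± 0.23, adjusted p = 0.00388) and F53A9.9 from 96 and 79.1 to 566.9 and 380.0 (2.4 ± 0.21, adjusted p = 0.00362), both calls holding without each array. For F19C7.2 the values were 214.1 and 159.4 against 1275.0 and 878.5 (2.51 ± 0.32, adjusted p = 0.0147). The deprived arrays of Y37H2A.14, at 1139.4 and 363.6 against 109.6 and 72.5, lay far apart from each other, and its change of 2.84 ± 0.49 passed narrowly (adjusted p = 0.0482). Among the falls, C24B9.3 went from 590.3 and 443.0 to 112.1 and 105.1 (-2.23 ± 0.17, adjusted p = 0.00239) and kept its call without each array. For dod-6, a gene found downstream of DAF-16, the signals were 3472.5 and 2225.1 against 731.6 and 561.4 (-2.12 ± 0.36, adjusted p = 0.0461), and for C17H12.8 they were 155.1 and 223.7 against 31.1 and 56.4 (-2.12 ± 0.29, adjusted p = 0.0231, with -1.65 and 0.159 in a second probe set). Single arrays left out took the adjusted p to 0.188 for Y37H2A.14 and 0.264 for dod-6 without undeprived 1, 0.089 for F19C7.2 without deprived 1 and 0.0994 for C17H12.8 without undeprived 2.

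Other rises were those of genes with annotated roles, most of them outside the lists. The galectins lec-7, from 34.2 and 28.4 to 112.7 and 122.2 (1.88 ± 0.12, adjusted p = 0.00155), and lec-2, from 2416.3 and 3113.3 to 6079.4 and 7496.4 (1.30 ± 0.16, adjusted p = 0.0131), both rose. The neprilysin family protease nep-14 rose from 15 and 16 to 64 and 86.8 (2.18 ± 0.16, adjusted p = 0.00199) and the astacin protease nas-25 from 14.8 and 14.6 to 42.1 and 35.5 (1.34 ± 0.12, adjusted p = 0.00338). The undeprived signals of both lay below the lower quartile of all values, so these changes are no exact folds. The intestinal peptide transporter gene pept-1 rose from 110.7 and 108.1 to 263.2 and 219.6 (1.13 ± 0.12, adjusted p = 0.00838). The Dicer-related helicase gene drh-2 rose by 1.36 ± 0.16 (adjusted p = 0.0115), and pals-23 rose by 1.36 ± 0.19 (adjusted p = 0.0241). The F-box gene fbxa-24 rose by 1.76 ± 0.12 (adjusted p = 0.00155), 1 of 3 rises among 310 such genes, a share of 0.968% close to the 1.16% of all genes, and 9 rose and 2 fell with the block. Of 259 nuclear hormone receptors nhr-112 rose (1.16 ± 0.17, adjusted p = 0.0261), a share of 0.386%, and no other was called, while with the block 10 rose and 1 fell. The blocked shares, 3.55% of the F-box genes and 4.25% of the receptors, were close to the 3.66% of all genes. Without undeprived 1 the adjusted p was 0.0839 for lec-2, 0.0688 for pept-1, 0.087 for drh-2 and 0.115 for pals-23, without deprived 1 it was 0.136 for nhr-112, and the other genes of this paragraph kept their calls without each array.

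Of 25 body wall muscle markers 3 fell, 12% against 1.16% of all genes, none rose, and 22 did not pass the test. The median was -0.28. The falls were those of the paramyosin gene unc-15, from 1117.8 and 1468.8 to 577.0 and 588.8 (-1.13 ± 0.17, adjusted p = 0.0315), the troponin I gene unc-27, from 917.3 and 691.8 to 391.1 and 265.1 (-1.30 ± 0.21, adjusted p = 0.0373), and the troponin T gene tnt-2, from 260.4 and 171.5 to 89.7 and 61.2 (-1.5 ± 0.25, adjusted p = 0.0459). The actin-binding gene unc-87, which is outside that list, fell (-1.0 ± 0.13, adjusted p = 0.0151), with -0.77 in another of its probe sets (adjusted p = 0.0717). The brightest probe set of the titin gene ttn-1 was higher by 1.03 ± 0.13 (adjusted p = 0.0161), but its other 5 probe sets were not called, at -0.14, -0.30, -0.03, -0.26 and 0.28. Likewise the other unc-15 probe sets were not called, at -0.55 (adjusted p = 0.416) and -1.28 (adjusted p = 0.141). With the block 7 muscle markers fell, 28% against 3.66% of all genes. Among them were the myosin heavy chain genes myo-3 at -0.74 (adjusted p = 0.00919) and unc-54 at -0.88 (adjusted p = 0.0346). No muscle marker kept its call without undeprived 1 or undeprived 2, the adjusted p reaching 0.229 for unc-27 and 0.238 for tnt-2 without undeprived 1, while those of unc-87 and the brightest ttn-1 probe set reached 0.121 without undeprived 1 and 0.0853 without undeprived 2. In bulk RNA, fewer cells of a type and less RNA per cell cannot be told apart.

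The 25 muscle markers summed to 18059 and 14215 in the deprived arrays and 24710 and 21108 in the undeprived arrays. The 21 intestinal markers, the tissue in which most of the lysosomal and lysozyme genes above are expressed, summed to 13407 and 12052 against 15025 and 13610. Most of that difference was asp-1, itself among the falls: without it, a choice made after seeing the data, the sums were 12562 and 10852 against 12804 and 10909. The list's median was -0.01, and the calls were the fall of asp-1, already described, and a rise of nhx-2, the sodium-proton exchanger of the intestinal surface, at 1.08 ± 0.18 (adjusted p = 0.0412, and 0.199 without deprived 1). These calls made up 9.52% of the intestinal markers with or without the block, against 3.66% and 1.16% of all genes. The part of tissue composition in the falls was not tested. No marker of neurons (34 measured), hypodermis (17), germline and oocytes (33), sperm (29), zygotic embryos (25) or pharynx (16) was called. With the block 2 neuronal markers rose and 1 hypodermal marker fell, each 5.88% of its list, against 3.66% of all genes. Without the block the general lists had no call, with medians of 0.09 for 75 cytosolic ribosomal proteins, 0.06 for 43 genes of the respiratory chain and ATP synthase and 0.05 for 33 proteasome genes, and no cuticle collagen was called. With it 3 collagens fell (2.05% of the family) and 1 respiratory chain gene rose (2.33%), both shares below the 3.66% of all genes.

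With food, deprivation changed 220 genes (1.29%) or 273 probe sets (1.21%). Of the 199 genes called in fasted worms, 60 were called in the same direction in fed worms, which is 30.2% of the fasted and 27.3% of the fed calls. They comprised 48 rises and 12 falls. The difference between the deprivation effects was itself called for 18 genes (0.105%) or 22 probe sets (0.0976%), and 9 of these genes were among the 199. None of these differences was called without undeprived 1 or without fed undeprived 1, and at most 8 probe sets were called with any 1 array left out. Larger falls in fasted worms were those of asp-3 and lys-2, described above, and of T21H3.1 and F42A10.7. For T21H3.1 the signals were 3133.4 and 2682.5 undeprived against 693.5 and 542.7 deprived (-2.24 ± 0.15, adjusted p = 0.00155), while the 4 fed arrays ran from 6270.1 to 7495.9. For F42A10.7 they were 281.6 and 277.9 against 48.9 and 40.1 (-2.63 ± 0.14, adjusted p = 0.000485), with 75.1 to 109.3 in the fed arrays. The fall of both genes in fasted worms held without each array.

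In 3 genes both effects were called and their directions were opposite. Without food aqp-1 fell, as given above, and with food it rose from 155.9 and 179.9 to 612.9 and 810.4 (2.07 ± 0.20, adjusted p = 0.00627). The lectin clec-62 fell in fasted worms from 897.0 and 773.5 to 420.4 and 447.8 (-0.94 ± 0.12, adjusted p = 0.0151) and rose in fed worms from 1537.7 and 1518.6 to 3004.6 and 2658.5 (0.89 ± 0.12, adjusted p = 0.0203). The caenacin cnc-4 rose in fasted worms from 158.5 and 139.8 to 253.1 and 291.2 and fell in fed worms from 1066.2 and 1154.5 to 531.3 and 504.4 (-1.1 ± 0.12, adjusted p = 0.0103). In none of the 6 comparisons did the deprived and undeprived arrays overlap. The fasted calls of these genes were among the weaker ones, with adjusted p of up to 0.268 for aqp-1 and 0.112 for clec-62 without undeprived 1 and 0.0994 for cnc-4 without undeprived 2.

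**Figure D5:**
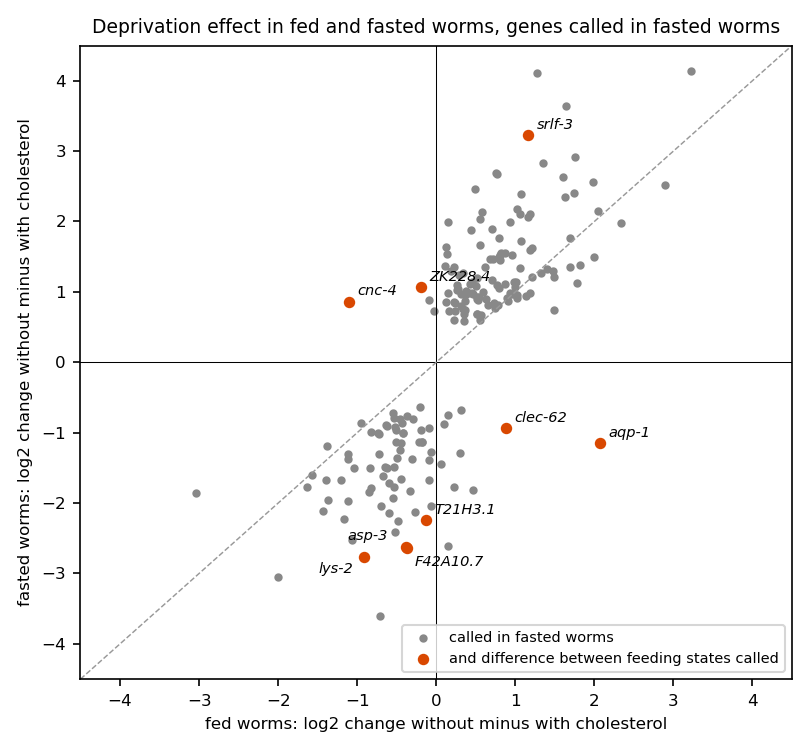
Log2 change without minus with cholesterol in fed worms (horizontal axis) and in fasted worms (vertical axis) for the 199 genes called in fasted worms, with the dashed line marking equal change. Genes whose difference between feeding states was called are orange and named, and aqp-1, clec-62 and cnc-4 lie in the quadrants of opposite sign.

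Genes that moved were sometimes next to each other in the genome. Of 191 called genes with a place in the RefSeq order of protein-coding genes, 18 (9.42%) had an adjacent gene that was called in either direction, against 1.9% of the uncalled genes. For 14 of them (7.33%) the adjacent gene was called in the same direction. The 7 pairs in the same direction were lys-1 and lys-2, ugt-43 and ugt-44, R07C12.1 and K08D10.14, F42A10.6 and F42A10.7, ZK1320.2 and ZK1320.3, Y110A2AL.9 and Y110A2AL.3, and clec-1 and F25B4.8. Only the pair of R07C12.1 and K08D10.14 was a pair of rises. In 2 pairs the neighbours went in opposite directions, spp-8 with srlf-3 and tnt-2 with F53A9.9. Neighbours of 1 family can share sequence, so their probe sets need not be independent measurements.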

How the data were processed

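Total RNA (100 ng per sample) of 8 samples was measured on 1-colour arrays, 2 per group. The deposited values are linear intensity per probe set, made by the authors with RMA per the submitters' processing notes, of a version not given in the sources used here. Arrays are scaled to each other by RMA, so a difference in total RNA cannot be seen. Of 22625 probe sets 77 Affymetrix controls were left out. A single gene symbol was given to 20766 of the 22548 tested, several to 887 and none to 895, and 20701 matched RefSeq genes (WBcel235), used for names and gene order alone. A gene was represented by its brightest probe set. The array number limits the precision, and p-values measure the spread between arrays described as independent replicates.

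On the log2(signal + 1) scale used here, dim genes change by too little, and the mean of at least 1 group was under the lower quartile of all values (4.69) in 15 called genes. A limma 3.58.1 fit (R 4.3.3) estimated the 4 group means from the 8 arrays (residual degrees of freedom 4, prior 3.37), with tests on both sides and Benjamini-Hochberg adjustment over all probe sets. Figures were drawn with matplotlib 3.10.9. On simulated arrays the fit recovered 67% of 2-fold and 98% of 4-fold changes in the fasted comparison, with 8 false calls, and 16% and 81% for the difference between feeding states, with 5 false calls. The simulated errors were independent between arrays, whereas same-numbered real arrays deviated together. These figures therefore need not hold for the real arrays.

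The labels give replicate numbers but no shared day. Deviations of same-numbered arrays correlated at 0.218 to 0.53 over the 6 pairs of groups, so the pairing comes from the data, and blocked values stand beside results they change, for the lists as counts. Among the 199 called genes the block ended no call. With it 3.66% of all genes were called, the share to set beside the blocked counts of the lists.

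The gene lists, the rule for naming genes and the alternatives were chosen with earlier results of these data known. The rule took the 15 largest rises and falls without overlapping arrays, up to 4 members per list by smallest p, and 30 fixed genes. Other genes named, and the smaller families (lipl, asp, lys, ilys, spp, vha, srlf, cyp-13A, caenacins, sphingolipid enzymes, abu and pqn), were chosen after their values were seen. Lists overlap. No sequence was used here.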

Additional observations from a re-analysis of the deposited data

Results flagged for a closer look

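For the following genes the effect of cholesterol deprivation differed between fasted and fed worms, with the difference itself (fasted effect minus fed effect, log2) passing the test over all probe sets. None of these calls was made without undeprived 1 or without fed undeprived 1, and with a pseudocount of 16 only 7 probe sets were called. Deprivation lowered fasted worms more for F42A10.7 by -2.26 ± 0.19 (adjusted p = 0.0184), for T21H3.1 by -2.11 ± 0.21 (0.0351), for asp-3 by -2.24 ± 0.21 (0.0282) and for lys-2 by -1.85 ± 0.20 (0.0392). It raised fasted worms more for srlf-3 by 2.06 ± 0.16 (0.0184) and for ZK228.4 by 1.26 ± 0.15 (0.0482). The sign of the effect was opposite in the 2 feeding states for aqp-1, with a difference of -3.21 ± 0.28 (0.0184), for clec-62, with -1.83 ± 0.17 (0.0238), and for cnc-4, with 1.96 ± 0.17 (0.0184).

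There were also genes with a large effect in fed worms and no call in fasted worms. For adh-1, an alcohol dehydrogenase, the difference was -4.10 ± 0.42 (adjusted p = 0.0372), from a change of 3.16 in fed and -0.94 in fasted worms. For acs-2, a fatty acyl-CoA synthetase known as fasting-induced, it was -3.18 ± 0.37 (adjusted p = 0.0476), from 3.33 in fed and 0.15 in fasted worms.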

How the results depend on the processing

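The number of probe sets called for deprivation in fasted worms was 249. It was 785 with the replicate block and 78 when the 4 fasted arrays were fitted alone, which has fewer degrees of freedom, and ranged from 61 (without undeprived 1) to 157 (without deprived 2) with 1 array left out. It was 91 without deprived 1, 110 without undeprived 2, 150 without either fed undeprived array and 156 without either fed deprived array. Cyclic loess, the bright-set shift (equal medians of the brightest probe sets), leaving out the dimmest 40%, leaving out probe sets ending in _s_at or _x_at, a pseudocount of 16 and a trended prior gave counts within 1.5 times the main one. Of the 249 calls, 230 were kept with the bright-set shift, 229 with the trended prior, 216 with cyclic loess and 161 with the pseudocount of 16. All 199 genes kept their sign in every setting in which they were fitted, and 40 kept their call without each of the 8 arrays. For the difference between feeding states, 22 probe sets were called, against 115 with the block, 7 with the pseudocount of 16 and 42 with the trended prior, and 0 to 8 with 1 array left out. The limma counts of 0 came without fed undeprived 1, where 1311 probe sets had an unadjusted p under 0.05, and without undeprived 1, where 1698 had. Each refit with 1 array left out had 1 array in a group and 3 residual degrees of freedom, so lost calls can come from lost precision. Whether the arrays left out differ in quality was not tested.

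Among genes named here, the sign reversed only for uncalled ones. With cyclic loess vit-6 was at -0.048 and with the bright-set shift at -0.029, and with 1 array left out it ranged from -0.030 to 0.064. With 1 array left out, daf-16 ranged from -0.187 to 0.330, daf-36 from -0.124 to 0.273, ncr-2 from -0.020 to 0.251, chup-1 from -0.162 to 0.099 and acs-2 from -0.088 to 0.395. The replicate block raised 21 of 155 named genes past the threshold and ended no call. Of the same 155 genes, 41 lost their call with the pseudocount of 16 and 72 when the 4 fasted arrays were fitted alone. Cyclic loess ended 13 such calls, and the bright-set shift and the trended prior 5 each. Signal over background and 2 arrays a group limit what can be called.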
